A study of Mus musculus with 16 samples.

Results

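The 6 libraries described here compare cells that lack the ATM protein with cells in which ATM is present but its kinase is inhibited. They were chosen by genotype and treatment: the 3 libraries of ATM-/- B cells and the 3 libraries of WT B cells given KU55933, all stimulated with anti-CD40 plus IL4. They are 6 of the 16 libraries of the series and hold 67623 of its 141166 junctions. All came from splenic IgM+ B cells of 129sv mice aged 6 to 8 weeks in which 25 I-SceI sites had been placed into intron 1 of c-myc, on chromosome 15, in 1 of its alleles. The stimulus was 1 µg/mL anti-CD40 with 20 ng/mL IL4, and cells were infected after 24 h with a retrovirus that expresses the nuclease I-SceI, and harvested at day 4. KU55933 was present at 10 µM from infection onwards, so the inhibitor cells had developed, and spent their first day in culture, with active ATM, whereas ATM-/- cells had lacked it throughout. The 4 untreated WT libraries of the same stimulation serve as the background. The labels do not say whether replicates came from separate mice, so p-values measure only the spread between these libraries.

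ATM is a kinase recruited to DNA double-strand breaks, where it phosphorylates repair and checkpoint proteins and helps to hold broken ends together for joining. In B cells it acts during V(D)J recombination of the antigen receptor loci and during class switching, in which the deaminase AID leads to breaks in the repetitive switch regions of Igh, the heavy chain locus. High-throughput genome-wide translocation sequencing (HTGTS) reads out joins between a fixed break, the bait, and any other broken end, the prey. Each junction is thus a prey position and strand, and its number reflects both how often a region is broken and how often its ends stay open to joining.

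Sequences of prey regions on which the results turn are given first, to show the kind of DNA joined in the switch regions, at the most frequent off-target gene and in a narrow group of joins near the break. The windows below are on the plus strand of mm9 and were read from the target sequences that the files give for the aligned reads. For the switch regions and Il4ra each window is the 100 bases with the most junctions in the 6 libraries among those that the reads covered whole, and capitals mark AGCT, a motif that AID prefers. The Smu window is chr12:114663911-114664010, the Sg1 window chr12:114575591-114575690, the Se window chr12:114514231-114514330 and the Il4ra window chr7:132697051-132697150.
Smu: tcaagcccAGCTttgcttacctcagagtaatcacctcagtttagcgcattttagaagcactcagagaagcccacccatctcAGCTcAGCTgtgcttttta
Sg1: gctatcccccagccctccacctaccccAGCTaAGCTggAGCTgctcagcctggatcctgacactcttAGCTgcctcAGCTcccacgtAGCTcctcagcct
Se: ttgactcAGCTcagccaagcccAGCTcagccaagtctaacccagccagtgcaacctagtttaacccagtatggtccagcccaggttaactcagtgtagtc
Il4ra: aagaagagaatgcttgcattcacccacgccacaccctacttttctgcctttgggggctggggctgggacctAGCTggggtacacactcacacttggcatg
The window of chromosome 15 below, chr15:61805411-61805530, lies about 14 kb centromeric of the break and held a narrow group of joins in 2 of the 6 libraries. Capitals mark the middle 50% of their join positions, from 61805466 to 61805479.
chr15 group: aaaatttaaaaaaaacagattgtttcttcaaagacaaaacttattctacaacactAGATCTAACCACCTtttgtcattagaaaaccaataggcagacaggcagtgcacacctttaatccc
The motif AGCT occurred 3 times in the Smu window, 6 times in that of Sg1, 2 times in that of Se, 1 time in that of Il4ra and not in the chromosome 15 window. In the corresponding windows that are not printed it occurred 2 times for Cd83, 1 time for Bcl6 and not for Il21r, Pim1 and Pax5.

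The ATM-/- group had 7725, 8449 and 5622 junctions in its libraries, with 2192, 2714 and 1912 of them outside chromosome 15. The KU55933 group had 10528, 17035 and 18264, with 3606, 5432 and 5604 outside, so regions are less precisely measured in the ATM-/- group. By the form of their read names the ATM-/- and untreated WT libraries were read on a 454 sequencer and the KU55933 libraries on a MiSeq, so the absence of ATM, its inhibition and the sequencer cannot be told apart. The median read length was 311 to 325 bases in ATM-/- libraries and 224 to 289 in KU55933 libraries, and the median prey alignment 112 to 128 and 95 to 109 bases. Junctions outside chromosome 15 whose prey began in a CA repeat made up 0.157% to 0.821% in ATM-/- libraries and 2.52% to 2.91% in KU55933 libraries. KU55933 replicate 3 holds no junction with more than 10 inserted bases, whereas the largest insertion was 277 to 359 bases in the other 5. KU55933 replicates 1 and 2, which were read in the same run, shared 186 exact prey positions outside chromosome 15, which is 5.16% and 3.42% of theirs, against at most 35 for any other pair of the 6 libraries. The part these properties play in the results was not tested beyond the alternatives given here.

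Across the genome the ATM-/- and KU55933 libraries distributed their joins in much the same proportions between the break's surroundings, the rest of chromosome 15 and the other chromosomes. Junctions outside chromosome 15 made up 28.4%, 32.1% and 34.0% of the ATM-/- libraries and 34.3%, 31.9% and 30.7% of the KU55933 libraries. The ranges overlapped, with means of 31.5% ± 2.87 (SD, n = 3) and 32.3% ± 1.82 (SD, n = 3) against 17.0% ± 1.74 (SD, n = 4) in untreated WT. Within 10 kb of the break, at position 61819433 of chromosome 15, lay 51.1% ± 4.33 and 49.4% ± 1.41 of junctions, against 72.3% ± 2.74 in untreated WT. The exact permutation test over libraries gave p = 0.7 for each of these shares. With 3 libraries against 3 that test has 20 splits and cannot give a two-sided p below 0.1, so for shares it cannot pass a threshold of 0.05. Of 40 shares compared in this way, 13 (32.5%) did not overlap between the groups, each with exact permutation p = 0.1 and 0.308 after Benjamini-Hochberg adjustment over the 40.

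Counts per region were therefore tested with the quasi-likelihood fit of edgeR, once over 29 features outside chromosome 15 and once over 37 features with 8 classes of distance and side on chromosome 15 added. Differences below are log2 fold differences, ATM-/- minus KU55933, so negative values mean fewer joins without ATM. At an adjusted p under 0.05, 3 of 29 features (10.3%) passed outside chromosome 15: the constant and switch part of Igh and the light chain locus Igk were lower in ATM-/- libraries (2 of 29, 6.9%), and chromosome 12 centromeric of Igh was higher (1 of 29, 3.45%). With chromosome 15 in the fit 5 of 37 (13.5%) passed. These were Igk and the Igh part again, 2 classes close to the break on its centromeric side, all lower in ATM-/- libraries (4 of 37, 10.8%), and the telomeric side of chromosome 15 beyond 1 Mb, which was higher (1 of 37, 2.7%). At an unadjusted p under 0.05 there were 8 of 37 (21.6%), of which 2 (5.41%) were higher.

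**Figure D1:**
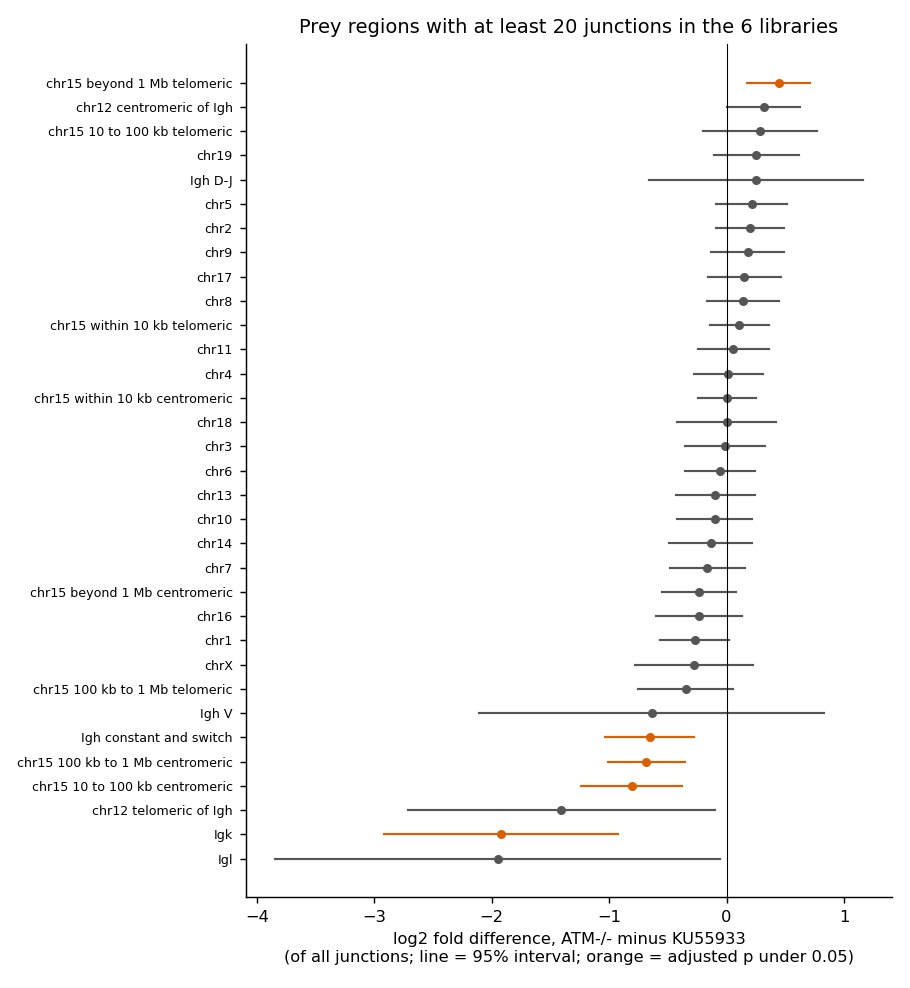
Log2 fold difference in the number of junctions, ATM-/- minus KU55933, for each prey region with at least 20 junctions in the 6 libraries, from the edgeR fit over 37 features with chromosome 15 included. Points are estimates and lines 95% intervals, and the 5 orange regions passed an adjusted p of 0.05. Most chromosomes lie near 0, and Igk has the lowest value of the 5 at -1.92.

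On the centromeric side of the break, joins between 100 kb and 1 Mb away were fewer in ATM-/- than in KU55933 libraries. This class held 1.24%, 1.25% and 1.33% of all junctions in ATM-/- libraries and 1.91%, 1.94% and 2.27% in KU55933 libraries, from 75 to 106 and from 201 to 414 junctions. Every KU55933 library lay above every ATM-/- library. The log2 fold difference was -0.68 (SE 0.16, edgeR adjusted p = 0.00579), and untreated WT held 0.988% ± 0.0792 (SD, n = 4). Against untreated WT the same fit gave 0.36 (edgeR adjusted p = 0.0621) for ATM-/- and 1.04 (edgeR adjusted p = 3.55e-07) for KU55933, 2 comparisons that share the WT libraries. Most of the gap lay between 0.5 and 1 Mb, where ATM-/- libraries had 5.05, 5.92 and 6.05 and KU55933 libraries 9.5, 11.6 and 10.9 junctions per 1000, without overlap. On the telomeric side the same distance class held 0.628% ± 0.0748 and 0.814% ± 0.224, and its log2 fold difference of -0.35 (SE 0.20) did not pass the threshold (edgeR adjusted p = 0.318). It passed without KU55933 replicate 3 (-0.58, edgeR adjusted p = 0.0374), so the sides of the break are not shown to differ at this distance.

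Closer in, from 10 to 100 kb on the centromeric side, the difference lay largely in a single narrow group of joins in 2 KU55933 libraries. The class held 0.557%, 0.675% and 0.765% of junctions in ATM-/- libraries and 0.750%, 1.29% and 1.37% in KU55933 libraries, with a log2 fold difference of -0.81 (SE 0.21, edgeR adjusted p = 0.00654). KU55933 replicates 2 and 3 stood above the rest, and KU55933 replicate 1 lay within the ATM-/- range. On the minus strand, between 61805448 and 61805567, KU55933 replicates 2 and 3 had 79 and 103 junctions and KU55933 replicate 1 had 1. The ATM-/- libraries had 0, 1 and 1 and the untreated WT libraries 0, 0, 1 and 1 there. The join positions formed the tight cluster whose sequence is printed above. These 2 libraries were read in different runs. Without this group the class held 0.656% ± 0.0955 and 0.792% ± 0.0450, and the log2 fold difference was -0.29 with an edgeR adjusted p = 0.446, so the class passed only with the group included. The call was also lost without ATM-/- replicate 1 (-0.69, edgeR adjusted p = 0.0722) and with the sequencing run as a random block (-0.73, limma adjusted p = 0.0511).

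**Figure D2:**
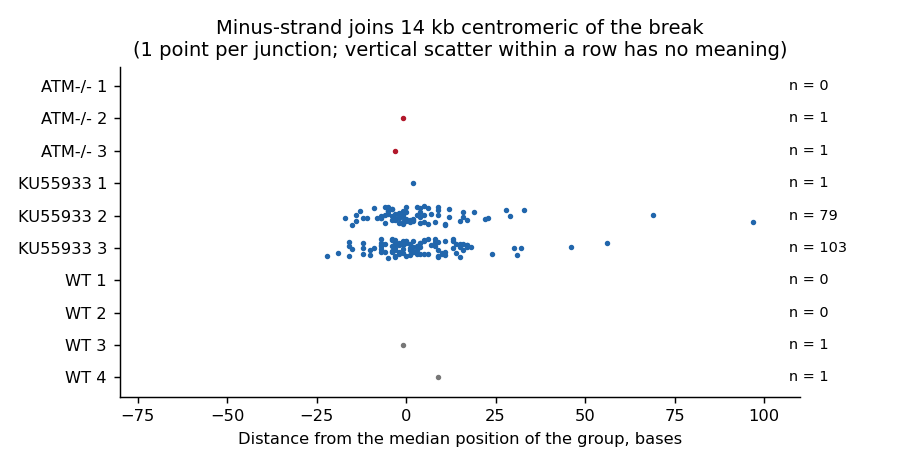
Positions of minus-strand joins around 14 kb centromeric of the break, in bases from the median position of the group, 1 point per junction and 1 row per library, with the number of junctions at the right. KU55933 replicates 2 and 3 hold 79 and 103 junctions and each of the other 8 libraries holds 0 or 1.

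Far along chromosome 15 the groups differed on the telomeric side. Beyond 1 Mb telomeric of the break, ATM-/- libraries held 6.17%, 6.46% and 6.19% of all junctions and KU55933 libraries 5.37%, 4.14% and 4.39%. All ATM-/- libraries were higher, with a log2 fold difference of 0.44 (SE 0.13, edgeR adjusted p = 0.0150). Untreated WT held 2.17% ± 0.305 (SD, n = 4). From 10 to 20 Mb the means were 23.7 ± 3.9 and 18.3 ± 4.60 junctions per 1000, with overlapping ranges. The ranges parted from 20 Mb outwards: from 20 to 30 Mb ATM-/- libraries had 15.8, 14.1 and 14.8 junctions per 1000 and KU55933 libraries 10.8, 8.51 and 8.21. From 1 to 10 Mb the ranges overlapped in each of the 3 windows. The call did not hold without ATM-/- replicate 1 (0.45), ATM-/- replicate 2 (0.42) or KU55933 replicate 2 (0.37), with edgeR adjusted p from 0.0685 to 0.164. It was also lost with the sequencing run as a random block (0.48, limma adjusted p = 0.0568) and with distinct positions (0.39, edgeR adjusted p = 0.0681).

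Beyond 1 Mb centromeric of the break the shares overlapped, 7.67% ± 1.37 in ATM-/- and 8.99% ± 1.56 in KU55933 libraries, with a log2 fold difference of -0.23 (SE 0.16, edgeR adjusted p = 0.437). As a result, 49.5%, 45.7% and 40.7% of the far chromosome 15 joins were telomeric in ATM-/- libraries and 40.6%, 33.1% and 29.0% in KU55933 libraries. ATM-/- replicate 3 and KU55933 replicate 1 all but met, and the exact permutation test gave p = 0.1 (adjusted p = 0.308). The untreated WT value was 51.4% ± 2.31 (SD, n = 4).

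**Figure D3:**
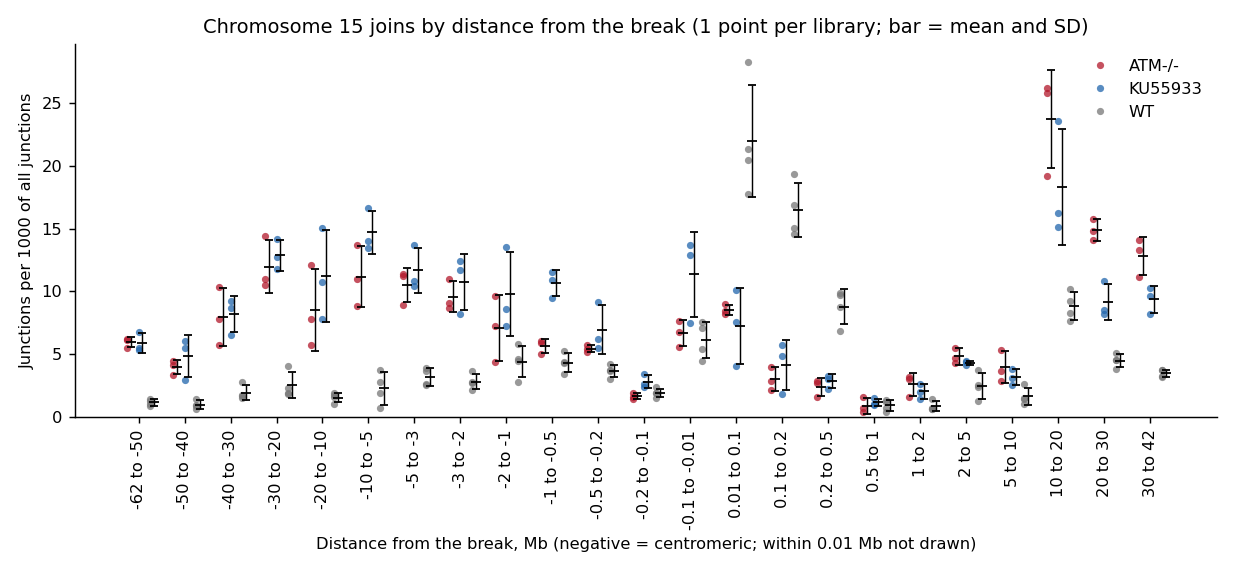
Junctions per 1000 of all junctions on chromosome 15 by distance from the break in Mb, with negative distances centromeric. Each point is 1 library, bars give the mean and SD of ATM-/- (n = 3), KU55933 (n = 3) and untreated WT (n = 4), and windows have unequal widths. KU55933 libraries lie above ATM-/- libraries from -1 to -0.5 Mb, and ATM-/- libraries lie above KU55933 libraries from 20 to 42 Mb.

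Immediately next to the break the 2 groups could not be separated. Within 10 kb the log2 fold difference had a 95% interval of -0.25 to 0.25 on the centromeric side and -0.14 to 0.36 on the telomeric side. Of the joins within 10 kb, 3.63% ± 0.178 and 3.81% ± 0.279 were telomeric on the minus strand, the rarest of the 4 combinations of side and strand. The commonest, telomeric on the plus strand, held 41.6% ± 3.34 and 39.8% ± 8.80. Centromeric minus-strand joins ranged widely within each group, from 20.8% to 33.1% in ATM-/- libraries and from 17.7% to 34.4% in KU55933 libraries.

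Genes named on chromosome 15 did not separate the groups. Pvt1, the long non-coding RNA gene next to Myc on its telomeric side, had 8.67, 6.51 and 7.47 junctions per 1000 of all junctions in ATM-/- libraries and 12, 8.28 and 3.56 in KU55933 libraries. The ranges overlapped, and both groups lay below untreated WT, at 32.5 ± 4.94 (SD, n = 4). Nsmce2, a SUMO ligase gene centromeric of the break, had 2.08 ± 0.279 and 2.41 ± 0.624. Ly6e, a surface protein gene telomeric of the break with junctions between 74785397 and 74789715, had 10, 9 and 3 junctions in ATM-/- libraries and 46, 28 and 16 in KU55933 libraries. Per 1000 these were 1.29, 1.07 and 0.534 against 4.37, 1.64 and 0.876, which overlapped. Ncald, Asap1, Csmd3, Mtss1, Ext1, Zhx2, Samd12, D030024E09Rik and Myc itself also had overlapping ranges.

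Chromosome 12 carries Igh near its telomeric end, and ATM-/- libraries held more joins than KU55933 libraries on its long centromeric stretch. The stretch centromeric of Igh, up to 114427082, held 8.26%, 7.59% and 10.3% of junctions outside chromosome 15 in ATM-/- libraries and 6.99%, 6.52% and 6.94% in KU55933 libraries. All ATM-/- libraries were higher, with a log2 fold difference of 0.34 (SE 0.10, edgeR adjusted p = 0.0210), and untreated WT held 3.17% ± 0.640 (SD, n = 4). The call was lost without ATM-/- replicate 3 (0.22, adjusted p = 0.152) and without KU55933 replicate 2 (0.31, adjusted p = 0.103). With DESeq2 it was 0.29 (adjusted p = 0.235), and in the edgeR fit with chromosome 15 included 0.32 (SE 0.15, adjusted p = 0.218). The short stretch telomeric of Igh had 1, 2 and 2 junctions in ATM-/- libraries and 6, 12 and 11 in KU55933 libraries, with -1.36 (SE 0.62, edgeR adjusted p = 0.142).

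The excess in ATM-/- libraries was not spread evenly along the chromosome. In windows of distance from the edge of Igh, the ranges of the 2 groups overlapped in each window of the first 5 Mb. In the first 0.5 Mb they had 5.98 ± 1.63 and 7.98 ± 1.41 junctions per 1000 outside chromosome 15, and from 0.5 to 1 Mb 3.77 ± 1.69 and 4.27 ± 1.13. From 5 to 10 Mb they had 13.5 ± 4.06 and 5.66 ± 0.730, and from 10 to 15 Mb 8.63 ± 1.16 and 3.98 ± 0.595, without overlap in either window. From 20 to 30 Mb they had 10.4 ± 0.486 and 7.23 ± 0.975, also without overlap, whereas from 15 to 20 Mb and beyond 30 Mb the ranges overlapped. The 5 Mb bin from 105 to 110 Mb held 36, 27 and 29 junctions in ATM-/- libraries and 20, 34 and 31 in KU55933 libraries, which is 16.4, 9.95 and 15.2 against 5.55, 6.26 and 5.53 per 1000. It was the only 1 of 455 bins (0.22%) to pass, with a log2 fold difference of 1.23 (SE 0.30, edgeR adjusted p = 0.0180). It did not pass with TMM factors (1.15, adjusted p = 0.104), with the run as a random block (1.22, adjusted p = 0.287), or without ATM-/- replicates 1 or 3 or KU55933 replicates 1 or 2. Plus-strand joins made up 48.9% ± 3.82 and 48.9% ± 2.63 of the joins centromeric of Igh, so neither orientation dominated in either group.

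**Figure D4:**
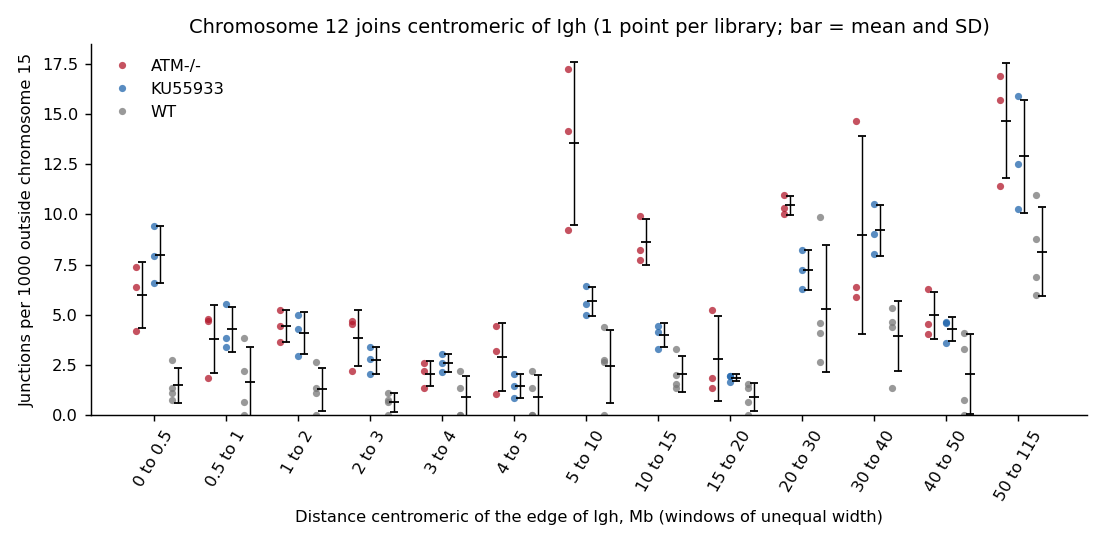
Junctions per 1000 outside chromosome 15 on chromosome 12, by distance in Mb centromeric of the edge of Igh. Each point is 1 library, with the mean and SD of ATM-/- (n = 3), KU55933 (n = 3) and untreated WT (n = 4). ATM-/- libraries lie above KU55933 libraries from 5 to 15 Mb and from 20 to 30 Mb, and the groups overlap over the first 5 Mb.

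Within Igh, joins to the switch regions were fewer in ATM-/- than in KU55933 libraries, whereas joins to the sequence between them were not. The constant and switch part, chr12:114427082-114664838, held 5.75%, 6.89% and 4.86% of junctions outside chromosome 15 in ATM-/- libraries and 9.12%, 9.74% and 8.17% in KU55933 libraries. The groups did not overlap, and the log2 fold difference was -0.60 (SE 0.13, edgeR adjusted p = 0.00215), against an untreated WT level of 12.8% ± 1.29 (SD, n = 4). It passed under every alternative run for the features outside chromosome 15. With chromosome 15 in the fit it was -0.66 (SE 0.19, edgeR adjusted p = 0.0107), a call lost without ATM-/- replicate 1 (-0.57), ATM-/- replicate 3 (-0.59) or KU55933 replicate 2 (-0.61), and with the sequencing run as a random block (-0.66, limma adjusted p = 0.0511). The 7 switch regions together held 4.35% ± 0.776 and 7.69% ± 0.948, also without overlap. Constant-part joins outside the switch regions held 1.48% ± 0.332 and 1.33% ± 0.289, with overlap, and 0.809% ± 0.0816 in untreated WT. These joins were thus 27.6%, 22.2% and 21.2% of all Igh joins in ATM-/- libraries and 16.9%, 10.1% and 15.6% in KU55933 libraries. Of 10 such shares within Igh, 5 (50%) did not overlap between the groups. Among these were Sg2a (0, 0 and 0 against 1, 2 and 2 junctions) and Sa (0, 0 and 0 against 2, 3 and 4). The 10 shares are parts of the same whole and so are not independent.

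Junctions per 1000 at Smu and Sg1 separated the groups and those of Se did not. Smu, the donor region of every switch, had 29, 59 and 23 junctions in ATM-/- libraries and 112, 179 and 158 in KU55933 libraries, or 15.7 ± 5.29 and 30.7 ± 2.40 per 1000. Sg1, the acceptor for IgG1, had 35, 45 and 31 against 90, 228 and 204, or 16.3 ± 0.309 and 34.4 ± 8.67 per 1000. In both regions every KU55933 library lay above every ATM-/- library. Se, the acceptor for IgE, had 24, 37 and 16 against 66, 59 and 11, or 11 ± 2.63 and 10.4 ± 8.18 per 1000. Here KU55933 replicate 1 was the highest of the 6 and KU55933 replicate 3 the lowest.

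In the edgeR fit of 162 genes and switch regions the log2 fold differences were -0.96 (SE 0.58) for Smu, -1.08 (SE 0.56) for Sg1 and 0.11 (SE 0.55) for Se, with adjusted p of 0.438, 0.378 and 0.958. Joins to Sg3, Sg2b, Sg2a and Sa, the regions that this stimulus does not target, numbered at most 4 in any of the 6 libraries. AGCT occurred in the 50 prey bases next to the join at 72.0% ± 12 and 70.9% ± 9.85 of Smu joins in ATM-/- and KU55933 libraries. A join could be read only where the prey aligned without gaps over at least 50 bases. At Sg1 that left 36 joins of the 35, 45 and 31 in ATM-/- libraries, and 266 of the 90, 228 and 204 in KU55933 libraries. Whether the sequencer affects which joins were left was not tested. Of the Sg1 joins left, 54.5%, 40% and 50% had the motif in ATM-/- libraries and 63.5%, 73.9% and 68.9% in KU55933 libraries. These ranges did not overlap (exact permutation p = 0.1). At junctions outside the switch regions and AID off-target genes the motif occurred in 22.5%. There it occurred in 26.4%, 24.2% and 23.5% in ATM-/- libraries and in 23.4%, 20.5% and 21.9% in KU55933 libraries. These ranges barely parted (exact permutation p = 0.1), and in the direction opposite to Sg1. At AID off-target genes the motif occurred in 18.0% ± 10.3 and 20.8% ± 2.91.

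Igk, the kappa light chain locus, also held fewer joins in ATM-/- libraries. This locus, on chromosome 6 between 67217836 and 70738026, had 6, 6 and 0 junctions in ATM-/- libraries and 21, 48 and 28 in KU55933 libraries. These were 0.274%, 0.221% and 0% against 0.582%, 0.884% and 0.50% of junctions outside chromosome 15. No ranges overlapped, although the 0 of 1912 junctions in ATM-/- replicate 3 allows up to 1.57 per 1000 (3 junctions, counting error only). The log2 fold difference was -1.88 (SE 0.50, edgeR adjusted p = 0.0123). It no longer passed without KU55933 replicate 2 (-1.57, adjusted p = 0.0930) in the fit outside chromosome 15. Untreated WT libraries ranged widely, with 6, 5, 11 and 0 junctions, or 0.459%, 0.549%, 0.729% and 0%. Against untreated WT that fit gave -1.45 (edgeR adjusted p = 0.318) for ATM-/- and 0.43 (edgeR adjusted p = 0.561) for KU55933. With chromosome 15 included these were -0.61 (edgeR adjusted p = 0.406) and 1.31 (edgeR adjusted p = 0.00455).

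Both ends of the Igk locus held joins. At the J-C end, from 70648971, there were 5, 4 and 0 against 15, 30 and 13 junctions, and in the V part 1, 2 and 0 against 6, 18 and 15. Igl, the lambda locus on chromosome 16, had 0, 2 and 0 against 6, 7 and 5 junctions, and its log2 fold difference of -1.88 (SE 0.89) did not pass (edgeR adjusted p = 0.142). The D-J part of Igh had 7, 13 and 4 against 11, 14 and 17 junctions, with overlapping shares and a log2 fold difference of 0.28 (SE 0.46). The T cell receptor loci Tra/Trd, Trb and Trg had at most 3 junctions in any of the 6 libraries, whereas each library had at least 93 junctions in the constant and switch part of Igh, as the labelled B cells would give.

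Outside the antigen receptor loci, no gene separated the groups at the threshold, listed targets of AID included. The edgeR fit called 0 of 162 genes (0%), with 17 at an unadjusted p under 0.05, 3 higher and 14 lower, and DESeq2 also called 0. Genes entered the fit by their junctions over all 16 libraries, and KU55933 libraries hold 14642 of those 33478 outside chromosome 15. Genes with many KU55933 joins thus entered more easily, which favours negative differences. Of 39 genes listed as AID off-targets 13 had enough junctions to be tested, and 11 of these had a negative and 2 a positive difference, beside 90 negative and 72 positive over all 162. Their median was -0.73, beside -0.18 over all 162. At an unadjusted p under 0.05, 4 of the 13 were lower and 0 higher, beside 8.64% lower and 1.85% higher over all genes tested. Joins to listed off-targets made up 3.10%, 2.28% and 1.26% of junctions outside chromosome 15 in ATM-/- libraries and 5.93%, 4.2% and 2.80% in KU55933 libraries. ATM-/- replicate 1 overlapped KU55933 replicate 3 (exact permutation p = 0.2), and untreated WT held 1.98% ± 0.407 (SD, n = 4).

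Il4ra, the gene of the IL4 receptor alpha chain, was the most frequent of them, with junctions between 132695806 and 132715146 of chromosome 7. It had 16, 17 and 5 junctions in ATM-/- libraries and 57, 77 and 51 in KU55933 libraries, or 7.30, 6.26 and 2.62 against 15.8, 14.2 and 9.10 per 1000. The groups did not overlap, and the log2 fold difference was -1.24 (SE 0.51, edgeR adjusted p = 0.271). Of 87 gene names outside chromosome 15 with at least 10 junctions in the 6 libraries, 20 (23.0%) lay lower in every ATM-/- library and 2 (2.3%) higher. This minimum counts both groups together, and KU55933 libraries hold 14642 of their 21460 junctions outside chromosome 15. Genes high in KU55933 libraries thus reached it more easily, so the imbalance between lower and higher is partly set by the filter.

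Il21r, the IL21 receptor gene next to Il4ra, had 2, 5 and 2 junctions against 24, 24 and 21, with -1.85 (SE 0.60, edgeR adjusted p = 0.179). Bcl6, a transcriptional repressor of germinal centre B cells, had 2, 0 and 0 against 13, 13 and 14. Its log2 fold difference was -3.01 (SE 0.87, edgeR adjusted p = 0.0945), the smallest adjusted p of the 162. Bcl6 passed with the replicate number as a block (adjusted p = 0.0315), with at least 30 junctions per gene (0.0281), with insertions limited to 10 bases in every library (0.0244), without ATM-/- replicate 1 (0.0290) and without KU55933 replicate 3 (0.0471). Il21r passed with the replicate number as a block (edgeR adjusted p = 0.0422) and with at least 30 junctions (0.0367).

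Pim1, a serine/threonine kinase gene, had 16, 7 and 1 junctions against 40, 36 and 18, and its values per 1000 overlapped. Cd83, a surface protein of activated B cells, had 3, 4 and 4 against 16, 13 and 12, or 1.37, 1.47 and 2.09 against 4.44, 2.39 and 2.14 per 1000. Pax5, a transcription factor of B cell identity, had 3, 6 and 3 against 9, 15 and 10, with overlap per 1000. The ranges of Bcl2l1, Aff3, Grap, Cxcr5, Cd79b and Birc3 also overlapped. Sh3bp5, which is not on the list, had 2, 1 and 4 against 10, 12 and 16 junctions, without overlap per 1000, and Arid5a had 4, 2 and 3 against 15, 12 and 9, with overlap.

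**Figure D5:**
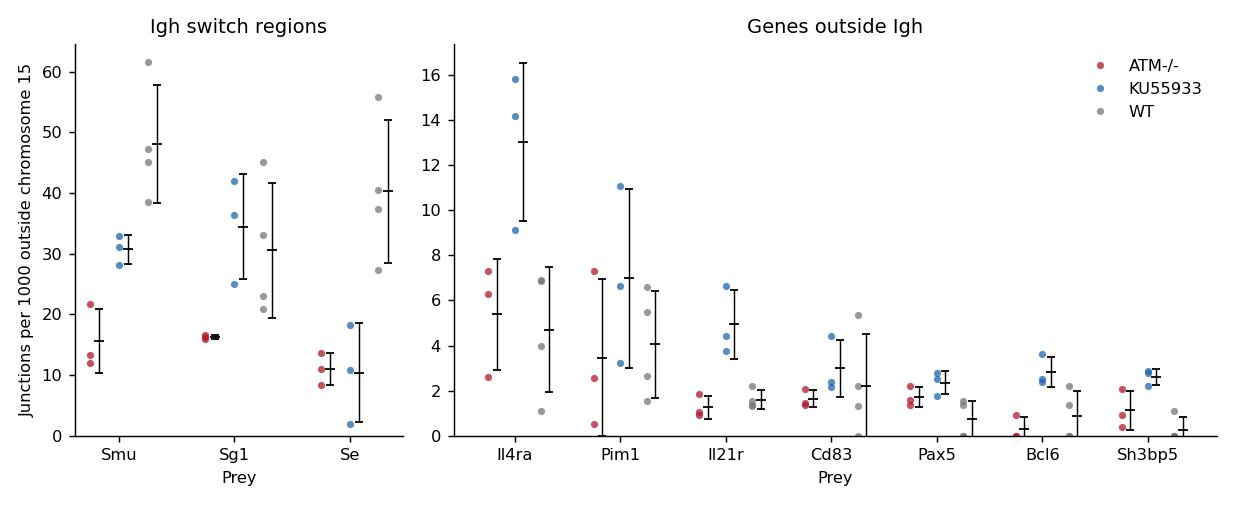
Junctions per 1000 outside chromosome 15 at 3 Igh switch regions and at 7 genes outside Igh. Each point is 1 library, with the mean and SD of ATM-/- (n = 3), KU55933 (n = 3) and untreated WT (n = 4). KU55933 libraries lie above ATM-/- libraries at Smu, Sg1, Il4ra, Il21r, Cd83, Bcl6 and Sh3bp5, and the groups overlap at Se, Pim1 and Pax5.

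Several of the genes named here, chosen partly for a small unadjusted p, had joins in all 3 KU55933 libraries and in no ATM-/- library. These were Il5ra, the IL5 receptor alpha gene (3, 4 and 4 junctions), Park2 (1, 4 and 5), Rassf2 (4, 2 and 2), the switch region Sa (2, 3 and 4) and 5033411D12Rik (2, 4 and 4). Over the 6818 ATM-/- junctions outside chromosome 15 a count of 0 allows up to 0.440 per 1000 (counting error only). With 0 ATM-/- junctions these genes reached the minimum for testing only through other libraries. Their KU55933 levels therefore give no support for a difference between the groups. The KU55933 group held 14642 junctions outside chromosome 15, so at equal rates a count of 0 is likelier in the ATM-/- group. How many of the 162 genes showed this pattern was not counted. Mef2c, a transcription factor gene, had 0, 1 and 0 against 10, 5 and 4. None passed the edgeR threshold, and the fitted folds of genes at 0 are not given.

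Genes with more joins in ATM-/- libraries were fewer, and none passed the edgeR threshold either. Plcd3 had 3, 2 and 4 junctions in ATM-/- libraries and 4, 0 and 0 in KU55933 libraries, with 2.02 (SE 0.85, edgeR adjusted p = 0.271), and it passed only without KU55933 replicate 1 (4.47, adjusted p = 0.0117). Prrc2b had 3, 3 and 0 against 0, 0 and 2, and Megf11 3, 1 and 0 against 0, 1 and 0. Mmp24, a metalloproteinase gene, had 5, 7 and 6 against 6, 8 and 10, which is 2.28, 2.58 and 3.14 against 1.66, 1.47 and 1.78 per 1000, without overlap. Of its joins in the 6 libraries, 28 fell within 200 bases, chr2:155631400-155631599. Apbb1 had 1, 7 and 5 against 4, 1 and 6, and Scd2 2, 5 and 4 against 4, 5 and 3.

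The lists of fragile sites did not separate the groups. Early replicating fragile sites held 0.382% ± 0.133 and 0.497% ± 0.123 of junctions outside chromosome 15, and long or late replicating fragile genes 0.341% ± 0.0728 and 0.477% ± 0.190. In the first list 3 of 14 genes could be tested, with a median of 0.30, and in the second 5 of 18, with a median of -0.41. Fhit, a tumour suppressor gene in a common fragile site, had 0, 2 and 2 against 0, 5 and 2 junctions, and Cntnap2, a very long neuronal gene, 0, 1 and 0 against 2, 3 and 4.

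Bins elsewhere in the genome gave values below the threshold on both sides. After the bin on chromosome 12, the smallest adjusted p was 0.0658, for 70 to 75 Mb of chromosome 7 (5, 7 and 5 against 2, 2 and 3 junctions, log2 fold difference 2.25, SE 0.64) and for 130 to 135 Mb of chromosome 7. The latter holds Il4ra and Il21r and had 27, 35 and 19 against 98, 134 and 101 junctions, with -0.97 (SE 0.27). Higher in ATM-/- libraries at an unadjusted edgeR p under 0.05 were also 100 to 105 Mb of chromosome 10, 110 to 115 Mb of chromosome 7, which holds Apbb1, and 100 to 105 Mb of chromosome 12. Lower were 65 to 70 Mb of chromosome 6, which holds part of the Igk V genes, 15 to 20 Mb and 35 to 40 Mb of chromosome 1, the latter with Arid5a and Aff3, and 35 to 40 Mb of chromosome 14. At an unadjusted p under 0.05 there were 39 of 455 bins (8.57%), 21 higher (4.62%) and 18 lower (3.96%).

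Measures of junction structure did not separate the 2 groups. Junctions with 10 or fewer overlapping or inserted bases outside chromosome 15 were compared. Microhomology of at least 1 base, sequence shared by bait and prey at the join, was found at 62.6%, 63.8% and 62.8% of these in ATM-/- libraries and at 57.7%, 62.8% and 65.2% in KU55933 libraries. The KU55933 values spanned the ATM-/- values, and untreated WT had 61.9% ± 3.21 (SD, n = 4). Microhomology of at least 3 bases was found at 23.8% ± 1.98 and 22.9% ± 3.84, blunt joins at 21.0% ± 2.03 and 22.3% ± 1.80, and insertions at 16% ± 1.91 and 15.8% ± 2.06. Where present, microhomology averaged 2.54 ± 0.0848 and 2.51 ± 0.136 bases. The median length of bait left before the join was 116 ± 1.00 and 116 ± 4.16 bases. In the constant and switch part of Igh, blunt joins were 14%, 10.2% and 18.2% in ATM-/- libraries and 21.5%, 18.5% and 15.6% in KU55933 libraries, which overlapped (exact permutation p = 0.2). Of 12 such shares, 0 separated the groups, and the smallest exact p was 0.2.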

How the data were processed

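Prey junctions were mapped by HTGTS from genomic DNA cut with HaeIII, per the labels' protocols. The deposited lists hold 1 junction per row with positions on mm9, per the submitters' processing notes, and gene names given by the authors. For the aligner and the filters, the sources used here give no account. The PCR count column of the deposited 454 lists was not tested. Repeat rows, broken rows and mitochondrial rows were left out. The counts tested are junctions per region as whole numbers. No mm9 annotation was used: loci were bounded by junctions of neighbouring named genes, and the D-J part of Igh is the 140 kb beyond Smu. The break is the median position of Myc junctions.

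Counts were fitted with edgeR 4.0.16 (quasi-likelihood, R 4.3.3) over all 16 libraries, with junctions outside chromosome 15 as library size, or all junctions where chromosome 15 was included. Bins needed 20 and genes 10 junctions over all libraries. The threshold was 0.05 after Benjamini-Hochberg adjustment over all features of a tally. The SE is the log2 fold difference over the square root of F. Shares were compared by two-sided exact permutation tests. The files' gap column, negative for microhomology, equalled the value rebuilt from the reads in 96.4% of 5584 reads. Only reads with shorter baits were compared, and reads that left the rebuilt bait sequence too early were dropped first. The share that matched may therefore be too high. The reads of KU55933 replicate 2 begin 2 bases before the point its coordinates count from, and this was allowed for. On simulated data 60% of 4-fold and 10.3% of 2-fold changes were recovered among 434 bins, and 41.7% and 0% among 140 genes, with 4 and 0 unchanged ones called. Of 8-fold changes 81.25% were recovered among bins and 36.4% among genes, so most such gene differences were missed. Alternatives were TMM factors, DESeq2 1.42.0, the compared groups alone, a replicate block, the run as a random block (limma 3.58.1), each library left out, distinct positions, longer prey alignments, other filters, bin sizes and bases. Alternatives on insertions, CA repeats, shared positions and the narrow group on chromosome 15 were added after seeing the data.

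The members, gene lists and tests were chosen with earlier results of these data known. Features named were parts of chromosome 12 and Igh, Igk, Igl and those past the threshold. Genes named were switch regions, the 10 with most junctions per group, list members with at least 10 junctions, and up to 8 per direction with the smallest unadjusted p. Bins named were up to 5 per direction.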

Additional observations from a re-analysis of the deposited data

How the results depend on the processing

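The Igh constant part outside chromosome 15, and Igk and the class 100 kb to 1 Mb centromeric with chromosome 15 included, passed under every alternative run for them. Leaving out 1 library gave 1 to 5 called features outside chromosome 15, 2 to 6 with chromosome 15, 0 to 4 bins and 0 to 1 genes. It moved the log2 fold difference of Igk from -2.30 to -1.41, of chromosome 12 centromeric of Igh from 0.22 to 0.44, and of the bin at 105 Mb of chromosome 12 from 1.08 to 1.44. With chromosome 15 included it moved the Igh constant part from -0.82 to -0.57, the class 10 to 100 kb centromeric from -1.01 to -0.66 and the class beyond 1 Mb telomeric from 0.37 to 0.56. With the sequencing run as a random block, 2 features were called with chromosome 15 and 0 bins; the Igh constant part was then -0.66, the 10 to 100 kb class -0.73, the class beyond 1 Mb telomeric 0.48 and the bin 1.22, none of which passed. TMM factors called 0 bins, with the bin at 1.15, and DESeq2 gave 0.29 for chromosome 12 centromeric of Igh, which did not pass. Chromosome 1 was -0.25 (edgeR adjusted p = 0.0566) outside chromosome 15 and passed in several alternatives. Among them were DESeq2 (-0.31, adjusted p = 0.0208) and the edgeR fits without ATM-/- replicate 3 (-0.30) or KU55933 replicate 1 (-0.29). Chromosomes 2 (0.29) and 9 (0.32) passed without ATM-/- replicate 3. With distinct positions the class beyond 1 Mb telomeric was 0.39, which did not pass. Without the narrow group, the 10 to 100 kb class was -0.29. The causes were not tested. Called genes numbered 2 with at least 30 junctions and 1 with insertions of at most 10 bases. Shares within Igh that did not overlap numbered 3 with that limit on insertions and 3 with positions of more than 1 library removed.

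Directions reversed at values near 0, at few junctions or with DESeq2, which scales the libraries by its own estimate. Whether that scaling moved the DESeq2 values was not tested. Joins within 10 kb centromeric gave -0.00734 without CA repeats, -0.00455 without shared positions, -0.00254 without the narrow group and -0.14 to 0.10 with 1 library left out. Leaving out 1 library gave -0.00156 to 0.26 within 10 kb telomeric, -0.0213 to 0.56 from 10 to 100 kb telomeric, -0.10 to 0.49 for Igh D-J, -0.50 to 0.56 for Bcl2l1, -0.47 to 0.38 for Birc3, -1.02 to 1.5 for Cxcr5, -0.19 to 1.24 for Fhit, -0.67 to 0.0298 for Grap and -0.38 to 0.78 for Se. Bcl2l1 was 0.16 with the run block. DESeq2 gave -0.41 for Fhit, -0.60 for Se and -7.86e-08 for Mmp24, and the limit on insertions -0.0349 for Fhit and -0.0299 for Se.

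Replicate numbers are shared by the groups, and whether they pair the libraries is not settled by these data. Deviations of same-numbered libraries correlated at -0.07, 0.37 and 0.44 over 22 features. Over 78 bins they correlated at 0.30, -0.05 and 0.25. With the replicate number as a block, 3 features outside chromosome 15, 5 with chromosome 15 and 1 bin were called, as without it, and 2 genes, Bcl6 and Il21r, in place of 0. The block lowered the edgeR adjusted p of the Igh constant part outside chromosome 15 from 0.00215 to 9.06e-09. For chromosome 12 centromeric of Igh it went from 0.0210 to 0.00201. Depth limits single genes most: the ATM-/- group holds 6818 junctions outside chromosome 15. The floors, which are the upper limits given for counts of 0, cover counting error only. The intervals come from the edgeR fits and also include the spread between libraries.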

Other observations

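A few windows of 200 bases held several joins each. They were chosen after their values were seen and were not tested. The window chr14:46096800-46096999, in Fermt2, an integrin-binding adaptor gene, had 3, 6 and 1 junctions in ATM-/- libraries and 4, 2 and 2 in KU55933 libraries, with 1, 0, 4 and 0 in untreated WT. In the Mmp24 window of the report the counts were 4, 5 and 5 against 6, 4 and 4, with 6, 3, 1 and 1 in untreated WT. A pair of adjoining windows upstream of Ly6e, from 74763600 of chromosome 15, had 4 and 4, 2 and 1, and 1 and 1 junctions in the ATM-/- libraries. KU55933 replicate 1 had 16 and 17 there, more than any other of the 10 libraries.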
